A study of Mus musculus with 24 samples.

Results

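Myc, Mycn, Max, Mnt, Mxd1, Mxd3, Mxd4 and Mxi1 make up the core of the Max network of transcription factors. They were chosen by name. All 8 genes were on the array, with 10 probes of the 55681 probes that covered 20028 named genes. Myc and its relative Mycn are unstable activators that bind DNA only as a pair with Max. Max also pairs with the repressors Mnt, Mxd1, Mxd3, Mxd4 and Mxi1, which recruit Sin3 co-repressors to the same E-box sites. In T cells Myc is known to be induced by antigen receptor signalling and to drive the growth and metabolism of the dividing cell, whereas some Mxd proteins accompany cell cycle exit or S phase.

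The samples were T helper cells of female C57BL/6 mice, differentiated in culture into Th1 or Th2 cells. Cells were left unstimulated or were reactivated, and were treated with the solvent DMSO, with JQ1, which displaces BET proteins from acetylated chromatin, or with flavopiridol, which inhibits the P-TEFb kinase that releases paused RNA polymerase. Each array carried the RNA of 1 condition in Cy3 and RNA of naive CD4+CD62L+CD25-CD44lo T cells from lymph nodes and spleens in Cy5. The study used both drugs to ask which T helper genes depend on P-TEFb and on BET proteins.

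Th1 cells were given DMSO or 500 nM JQ1 for 6 hr or 24 hr, and 50 nM JQ1 or flavopiridol at 1 µM or 10 µM for 6 hr. Th2 cells were given JQ1 at 50 nM or 500 nM, or flavopiridol at 1 µM or 10 µM, for 6 hr. The Th2 DMSO arrays are called 24 hr in one label and 6 hr in another, so their time is not settled. They served as the control of the 6 hr Th2 drug arrays, so a difference in time may enter those drug effects. Each condition was measured once in each state, giving 14 Th1 and 10 Th2 arrays, and the stimulus used for reactivation is not given in the labels. Pairs of arrays or cell contexts (a cell type in 1 state) stood in for replicates, so every p-value measures the spread between contexts and not between mice or cultures.

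All values below are log2 ratios of the sample to the naive RNA, or differences of such ratios. Between 35.5% and 52% of probes were well above background in Cy3 on an array, and the same naive RNA differed between arrays with a median SD of 0.18 on the log2 scale. The CD4 T cell markers Cd3e, Cd4, Cd28 and Lat were above background on all 24 arrays. The Th2 marker Gata3 stood at 1.95 and 2.64 in the Th2 DMSO cells, and between -0.52 and 0.55 in Th1 DMSO cells. In reactivated DMSO cells the Th2 markers Il4 and Il13 were 8.02 and 4.84 in Th2. In Th1 cells they were 3.07 and 3.7 at 6 hr, and 4.49 and 4.6 at 24 hr. Il5 was 3.66 in reactivated Th2, but its 0.1 in unstimulated Th2 lay between the unstimulated Th1 values (0.03 and 0.14). The Th1 markers Tbx21 and Ifng were at -0.02 and 0.65 in unstimulated Th2 and 5.41 and 7.15 in unstimulated Th1 DMSO cells at 6 hr. On the reactivated Th2 DMSO array these Th1 markers stood at 4.64 and 6.2, against 6.11 and 8.59 on that of Th1 cells at 6 hr. Among activation markers, Nr4a1 and Cd69 were 2.26 and 1.19 in unstimulated Th1 DMSO cells at 6 hr, and -1.97 and -3 in unstimulated Th2. Cd69 was 0.98 in reactivated Th1 DMSO cells at 6 hr, whereas Il2, Nr4a1 and Egr1 were higher after reactivation in every DMSO pair. Of 8 markers of other cells considered here, Csf1r was above background on 24 arrays, Cd8b1 on 21, Ms4a1 on 20, Cd79a on 14, Cd8a on 13, Itgax on 9, Ncr1 on 1 and Lyz2 on 0. Their summed Cy3 level, in log2, was 10.06 to 10.54 on Th1 arrays and 10.71 to 11.3 on Th2 arrays without flavopiridol, and 11.06 to 11.86 on the flavopiridol arrays, and its part in the results was not tested.

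Network dimers bind the E-box CACGTG, which reads the same on both strands, so the promoters of the members are shown first. Promoter windows of RefSeq genes on GRCm38.p6 were searched over the 250 bases before the gene start, with no other motif looked for. Of 27025 genes with a window, 6.86% held the E-box. Of the members, 7 had a window (Myc had no entry), and 2 of these, Mnt and Mxd4, held it. Mnt has it 123 bases before the start, at chr11:74830789-74830818 on the plus strand, and Mxd4 has it 219 bases before the start, at chr5:34187912-34187941 on the minus strand. In the wider network 2 of 5 genes held it. These were Mlx, the partner of the glucose-sensing factors, at chr11:101087238-101087267 on the plus strand, and Mlxipl, which encodes the glucose-sensing factor ChREBP, at chr5:135089780-135089809 on the plus strand. Another Mlxipl window, at chr5:135106641-135106940, held no E-box. The E-box is in capitals in each sequence, written 5′ to 3′ on the gene's strand, and a match describes only the letters.
Mnt: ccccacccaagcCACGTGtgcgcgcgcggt
Mxd4: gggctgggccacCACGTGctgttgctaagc
Mlx: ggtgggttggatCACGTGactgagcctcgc
Mlxipl: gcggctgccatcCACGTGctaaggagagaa

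Myc was the member with the widest range, from -1.92 to 3.27 over the 24 arrays. In Th1 DMSO cells its log2 ratio to naive RNA was -0.05 unstimulated and 2.52 reactivated at 6 hr, and 0.17 and 3.06 at 24 hr. In Th2 DMSO cells it was -1.18 and 3.27. All 3 reactivated arrays were far above all 3 unstimulated arrays, with no overlap. Over the 16 arrays without flavopiridol, unstimulated cells ran from -1.66 to 0.17 with a median of -0.42, and reactivated cells from 1.81 to 3.27 with a median of 2.54. The highest levels were those of reactivated Th2 DMSO cells (3.27), reactivated Th1 DMSO cells at 24 hr (3.06) and reactivated Th2 cells with 50 nM JQ1 (2.85), and the lowest were those of unstimulated Th1 cells with 1 µM (-1.92) and 10 µM (-1.82) flavopiridol. Many neighbours in this order lay within 0.18 of each other and were not told apart by 1 array each, whereas a gap from 0.17 to 1.81 separated the reactivated arrays without flavopiridol from all others.

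**Figure D1:**
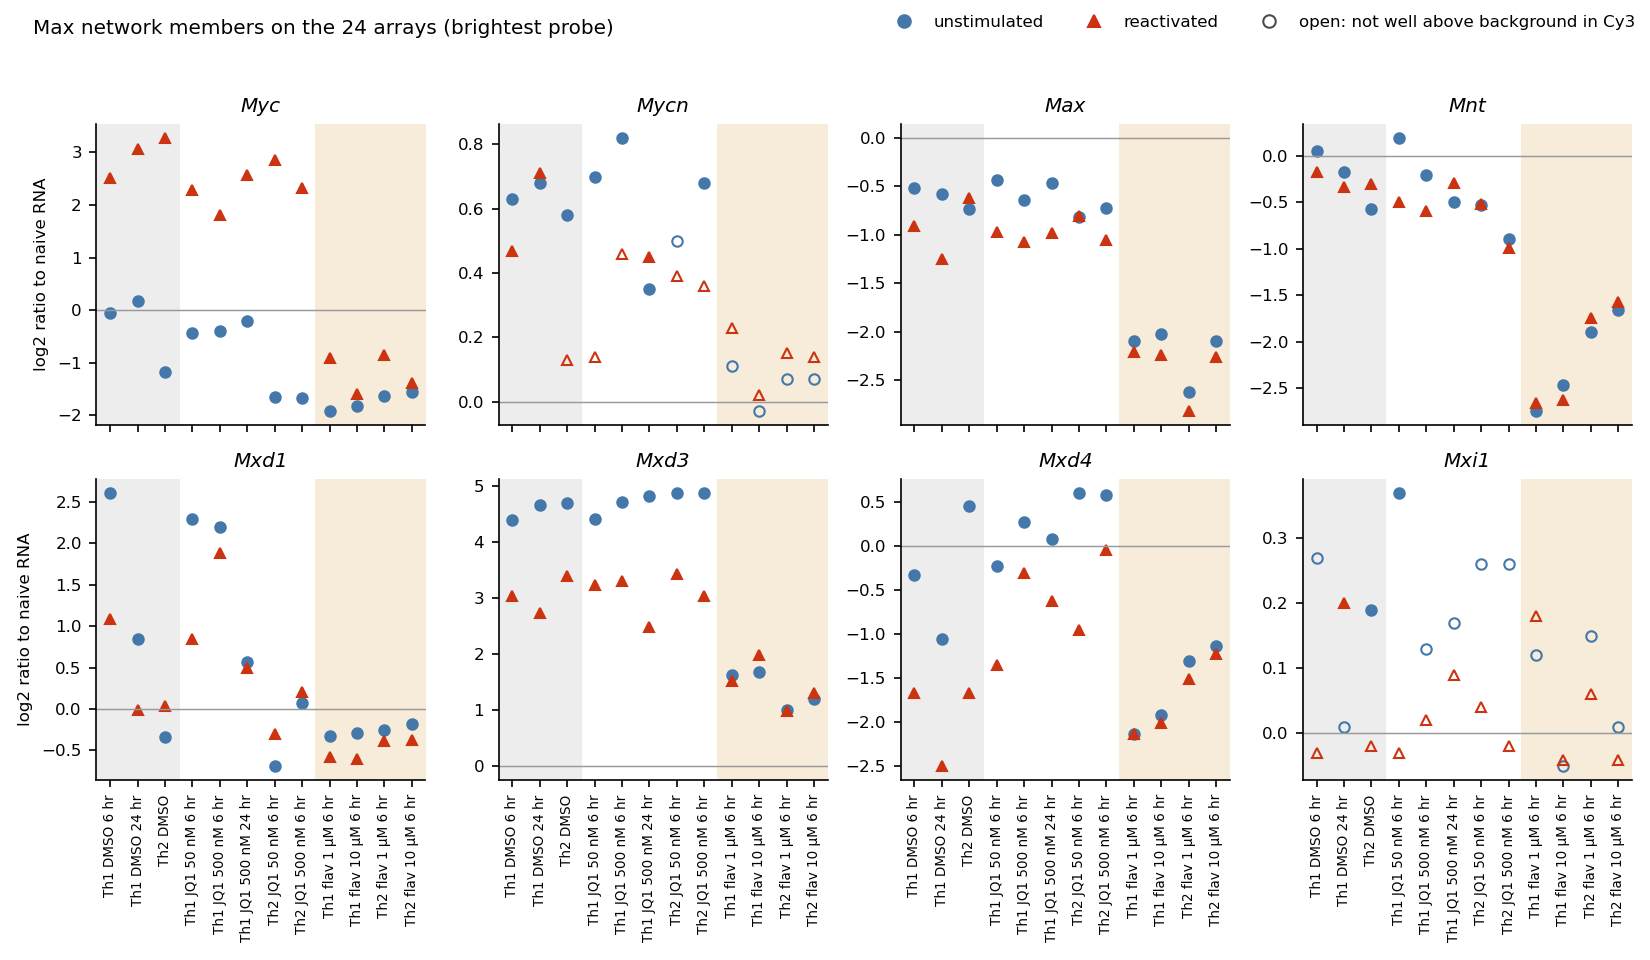
Log2 ratio to naive RNA (y axis, scaled per panel) of the brightest probe of each of the 8 members in the 12 cell and treatment conditions (x axis), with blue circles for unstimulated and red triangles for reactivated cells and open symbols where Cy3 was not well above background. Grey shading marks DMSO and tan shading flavopiridol. Myc lies at 1.81 to 3.27 in reactivated cells without flavopiridol, Mxd3 is above naive RNA on all 24 arrays, and Max and Mnt are lowest with flavopiridol.

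Reactivation without drug raised Myc and lowered Mxd3 and Mxd4, so that 3 of the 7 members tested changed, against 51% of the 12530 genes tested (21.9% higher and 29.1% lower). Myc rose 9.87-fold, by 3.3 ± 0.35 (log2, SE, 3 pairs; limma, Benjamini-Hochberg adjusted p = 0.000696), and the differences in the pairs were 2.57, 2.89 and 4.45. Mxd3, a repressor of the Mxd family that is expressed in S phase of dividing cells, was 4.4, 4.67 and 4.69 in unstimulated and 3.03, 2.74 and 3.4 in reactivated DMSO cells. The groups did not overlap, and Mxd3 fell by 1.53 ± 0.16, or 2.89-fold (limma adjusted p = 0.000735). Mxd4, a repressor linked to quiescent and differentiated cells, was -0.33, -1.05 and 0.46 unstimulated and -1.67, -2.5 and -1.67 reactivated. Mxd4 was lower after reactivation in all 3 pairs and fell by 1.64 ± 0.18, or 3.11-fold (limma adjusted p = 0.000852). Its second probe fell by 2.06 ± 0.28 (limma adjusted p = 0.0015). These are bulk samples, in which fewer cells of a type and less RNA per cell cannot be told apart.

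Max, the shared partner, did not pass the test on reactivation. Its log2 ratio was -0.52, -0.58 and -0.73 in unstimulated and -0.91, -1.25 and -0.62 in reactivated DMSO cells, with overlapping groups and a difference of -0.32 ± 0.17 (limma adjusted p = 0.18). Both Th1 pairs were lower after reactivation and the Th2 pair was higher. Without both Th2 DMSO arrays the difference was -0.53 and passed the test (limma adjusted p = 0.0321). Mnt, a broadly expressed repressor that shares Max with Myc, was 0.05, -0.17 and -0.57 unstimulated and -0.18, -0.34 and -0.3 reactivated, a difference of -0.04 ± 0.15 (limma adjusted p = 0.829). The groups of Mnt overlapped.

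The probes of Mxd1, a repressor linked to terminal differentiation, disagreed. Its brightest probe was 2.61, 0.84 and -0.34 in unstimulated and 1.09, -0.01 and 0.04 in reactivated DMSO cells and did not pass the test (-0.66 ± 0.33, limma adjusted p = 0.147). The dimmer probe was 2.76, 1.42 and 0.52 unstimulated and 0.39, -0.39 and -0.41 reactivated, without overlap, and fell by 1.7 ± 0.25 (limma adjusted p = 0.00232). In the naive RNA, which was the same on every array, the brightest Mxd1 probe had an SD of 0.46 across the 24 arrays and the dimmer probe one of 0.06, so the probes are given separately. Without both Th2 DMSO arrays the brightest probe also passed the test, at -1.18 (limma adjusted p = 0.00346), and 5 members changed. Mycn was above background in Cy3 on 3 of 3 unstimulated and 2 of 3 reactivated DMSO arrays and never in Cy5, and it did not pass the test (-0.2 ± 0.14, limma adjusted p = 0.299). Mxi1 was above background on 3 of 24 arrays, at ratios between -0.05 and 0.37, and was not tested in any comparison.

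**Figure D2:**
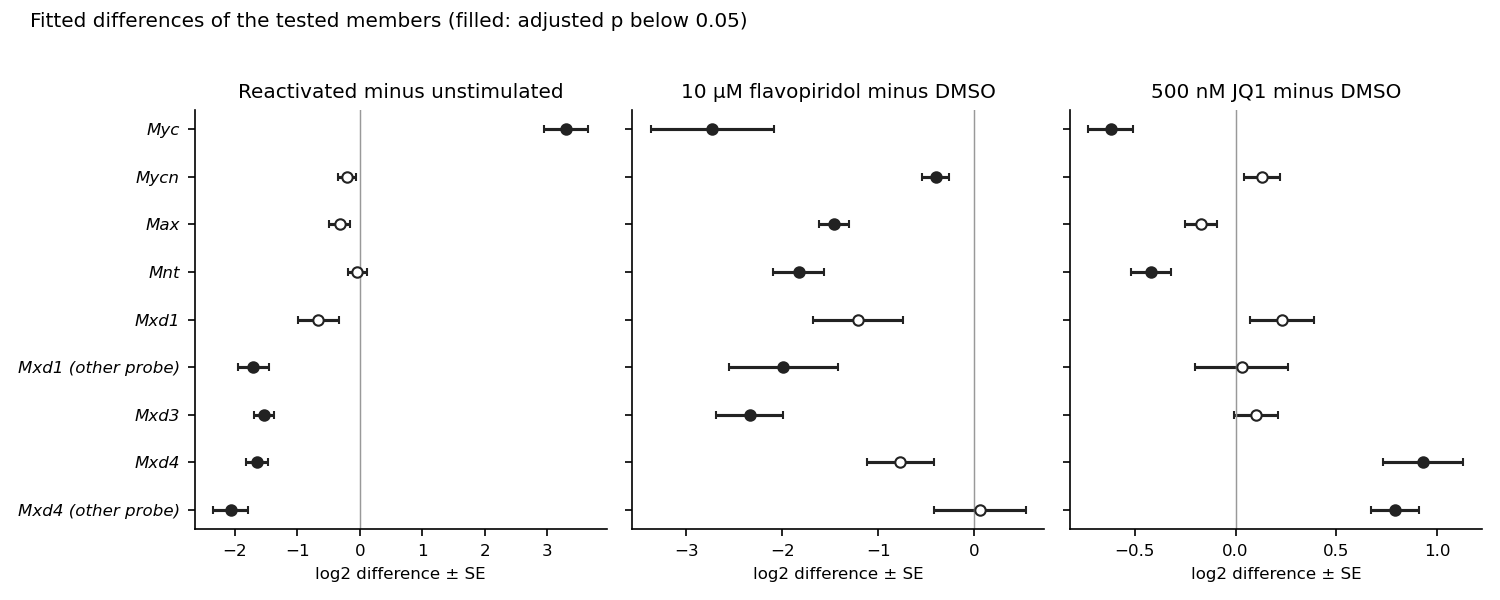
Log2 difference (x axis, point) with its standard error (bar) for the 7 tested members and the second probes of Mxd1 and Mxd4 (y axis), on reactivation of DMSO cells, with 10 µM flavopiridol and with 500 nM JQ1. Filled points passed the limma test at an adjusted p below 0.05. Myc is highest on reactivation (3.3) and lowest with flavopiridol (-2.73), and Mxd4 is the member above 0 that passed with JQ1 (0.93).

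Against the naive RNA itself, unstimulated T helper cells differed most in Mxd3. The naive RNA is 1 reference and its own spread is left out of these tests. In unstimulated DMSO cells 3 of 7 members differed, against 58.4% of the 12530 genes. Mxd3 was 24-fold higher than in naive RNA, at 4.59 ± 0.14 (limma adjusted p = 6.71e-07), with Cy5 above background on all 3 arrays. Max was 1.53-fold lower, at -0.61 ± 0.13 (limma adjusted p = 0.0055), and Myc was at -0.35 ± 0.26 (limma adjusted p = 0.288), but passed under median centring at -0.84 (limma adjusted p = 0.0161). In reactivated DMSO cells 5 of 7 differed, against 72% of genes. Myc was 7.73-fold higher than in naive RNA (2.95 ± 0.26, limma adjusted p = 5.61e-05), and Mxd3 was still higher by 3.06 ± 0.14 (limma adjusted p = 3.41e-06), although Cy5 was above background on 2 of 3 arrays. Mxd4 was 3.85-fold and Max 1.9-fold lower than in naive RNA. Mycn passed in both states, at 0.63 and 0.43, but against a Cy5 channel that was not above background, so no fold is given, and its call in reactivated cells was lost without either Th1 DMSO array of that state (0.42 and 0.3). Mxd1 in unstimulated cells was at 1.04 ± 0.5 in its brightest probe (limma adjusted p = 0.116) and was higher than in naive RNA by 1.57 ± 0.38 in the dimmer one (limma adjusted p = 0.0103). Without the unstimulated Th2 DMSO array the brightest probe also passed (1.73, limma adjusted p = 0.016), as did Mnt in reactivated cells (-0.27, limma adjusted p = 0.0311). Mnt in reactivated cells also passed with the software's log ratio (-0.47, limma adjusted p = 0.0208). Under median centring it passed in both states, at -0.92 in reactivated (limma adjusted p = 0.000215) and -0.86 in unstimulated cells (limma adjusted p = 0.000497).

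Most listed genes that Myc is known to induce were higher after reactivation. These lists were drawn up with earlier results of these data known, so their counts are a description. Of 35 listed Myc-induced genes 29 changed on reactivation (82.9%, against 51% of all genes), with 25 higher and 4 lower, where 21.9% of all genes were higher and 29.1% lower, and their median difference was 1.15 against -0.05 for all genes tested. Srm, which makes spermidine, rose by 3.78 ± 0.32, and the nucleolar factor Gnl3 (nucleostemin) rose by 2.86 ± 0.27. E2f2, a cell cycle transcription factor, fell by 3.07 ± 0.26 and the replication clamp Pcna by 0.64 ± 0.17. Of 10 listed Myc-repressed genes 3 rose and 3 fell (60%, near the 51% of all genes), and the median difference was 0.04. The cell cycle inhibitor Cdkn1b (p27) fell by 2.82 and Ccng2, a cyclin of arrested cells, by 2.54, whereas the stress gene Gadd45b rose by 2.3 and the inhibitor Cdkn2b (p15) by 1.73. Of 22 tested cofactor and turnover genes 15 changed (68.2%, against 51% of all genes), with a median of 0.53 against -0.05. Of these 11 rose, with Usp36, a nucleolar deubiquitinase that acts on Myc, at 1.72 and the helicase Ruvbl1 at 1.46, and 4 fell, with Bin1, a Myc-interacting protein, at -1.03 and the co-repressor Sin3a at -0.74. In the wider network, where 4 of 5 genes were tested, Mlxip, which encodes MondoA, rose by 0.51 ± 0.13 (limma adjusted p = 0.0166), and Mga, Mlx and Mlxipl did not pass the test.

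With flavopiridol the activator Myc, its partner Max and the repressors Mnt and Mxd3 were lower. At 10 µM 5 of 7 members fell and none rose, against 48.8% of the 12432 genes (15.4% higher and 33.4% lower). Over the 8 flavopiridol arrays at both doses, Myc ran from -1.92 to -0.86 with a median of -1.57. No flavopiridol array reached the level of a reactivated array without the drug, but unstimulated Th2 cells without flavopiridol, at -1.66 to -1.18, lay in the same range. Relative to DMSO Myc fell 6.62-fold, by 2.73 ± 0.64 (limma adjusted p = 0.00744). The differences were -1.77 in unstimulated and -4.11 in reactivated Th1 cells and -0.36 and -4.66 in Th2 cells, so that reactivated cells had the larger falls.

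Max and Mnt fell too, and the difference of the fall between states did not pass the test for either (-0.04 ± 0.33 and -0.05 ± 0.58, limma adjusted p = 0.952 and 0.971). Max was -2.02 and -2.24 in unstimulated and reactivated Th1 cells and -2.1 and -2.26 in Th2 cells with 10 µM flavopiridol, where the DMSO cells of the same type and state had -0.52, -0.91, -0.73 and -0.62. No value overlapped, and Max fell 2.75-fold (-1.46 ± 0.16, limma adjusted p = 0.000146). Mnt was -2.47, -2.63, -1.66 and -1.57 in the same order, and fell 3.55-fold (-1.83 ± 0.27, limma adjusted p = 0.000733). Over both doses the level of Mnt was -2.75 to -2.47 in Th1 cells and -1.9 to -1.57 in Th2 cells, but the difference between cell types in the effect did not pass the test (-1.3 ± 0.21, limma adjusted p = 0.174).

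Among the Mxd genes, Mxd3 fell most with flavopiridol. It was 1.68, 1.99, 1.2 and 1.3 with 10 µM, where DMSO cells had 4.4, 3.03, 4.69 and 3.4, and it fell 5.06-fold (-2.34 ± 0.35, limma adjusted p = 0.000725). The Cy5 channel of this probe, the naive RNA, was above background on 1 of the 4 arrays with 10 µM and on all 4 of the DMSO arrays. Cy3 was above background on all 8, and the fall also passed the test with Cy3 alone. With the scanner software's own log ratio the fall of Mxd3 was smaller and missed the threshold (-0.74, limma adjusted p = 0.0716). Mxd4 was -1.92 and -2.01 in Th1 and -1.13 and -1.23 in Th2 cells with 10 µM, and its probes disagreed, with -0.77 ± 0.35 (limma adjusted p = 0.0968) for the brightest and 0.06 ± 0.48 for the other, which was above background on 4 of the 8 flavopiridol arrays. Mxd1 was -1.21 ± 0.47 (limma adjusted p = 0.0609) by its brightest probe and fell by 1.99 ± 0.57 (limma adjusted p = 0.0208) by the dimmer one. Under median centring and under the spike-in shift the brightest probes passed, at -2.08 (limma adjusted p = 0.00115) and -1.54 (limma adjusted p = 0.00175) for Mxd4 and at -2.58 (limma adjusted p = 0.000333) and -1.98 (limma adjusted p = 0.000724) for Mxd1. Mycn was above background on 3 of 4 DMSO arrays and 0 of 4 arrays with 10 µM flavopiridol, at least 1.19-fold lower (limma adjusted p = 0.0378), a call lost at -0.05 under median centring and in 6 of the 9 fits with 1 array left out that could test it. Without the reactivated Th2 DMSO array Mxd1 was -1.48 and Mxd4 -1.16, and without the unstimulated one Mxd1 was -1.66, and these passed the test.

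Both flavopiridol doses gave calls in the same direction. At 1 µM Max, Mnt, Mxd3, Myc and Mxd4 fell (5 of 7, against 51.7% of genes), with Myc at -2.47 ± 0.64 and Mxd4 at -0.96 ± 0.35 in its brightest probe (limma adjusted p = 0.045). The second Mxd4 probe, at 0.06 ± 0.48 with 10 µM, differed by 0.2 ± 0.48 between 10 µM and 1 µM. Between 10 µM and 1 µM 0 of 7 members differed by limma with Benjamini-Hochberg adjustment, against 1.87% of genes. At an unadjusted p below 0.05 it was 0 members and 1421 of 12432 genes, and the difference for Myc was -0.25 ± 0.64. Changes are relative to the bulk of genes on an array. With the arrays set on their spike-in controls the median of all genes with flavopiridol moved from -0.22 to -0.99, and the falls of Myc, Max, Mnt and Mxd3 still passed the test there.

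JQ1 had a smaller and mixed effect on the network. At 500 nM Myc and Mnt fell and Mxd4 rose, 3 of 7 members against 47.5% of the 12911 genes (17.7% higher and 29.8% lower). Myc was -0.4 and 1.81 in unstimulated and reactivated Th1 cells at 6 hr and -1.66 and 2.33 in Th2 cells, against -0.05, 2.52, -1.18 and 3.27 with DMSO. All 4 differences were negative (-0.35, -0.71, -0.48 and -0.94), and Myc fell 1.54-fold (-0.62 ± 0.11, limma adjusted p = 0.000963). The Th1 cells at 24 hr, which were not in that fit, had differences of -0.38 and -0.49. These falls are small beside the difference between states, so that reactivated cells with 500 nM JQ1 still had a higher Myc than all unstimulated cells.

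Mxd4 was higher with 500 nM JQ1 in each context. It was 0.28 and -0.3 in Th1 cells at 6 hr and 0.58 and -0.04 in Th2 cells, against -0.33, -1.67, 0.46 and -1.67 with DMSO. The 4 differences were 0.61, 1.36, 0.12 and 1.63, the Th1 cells at 24 hr had 1.14 and 1.88, and the fit gave a 1.9-fold rise (0.93 ± 0.2, limma adjusted p = 0.0037). The second probe rose by 0.79 ± 0.12 (limma adjusted p = 0.000565). Under the spike-in shift, which moved the median of all genes from -0.07 to -0.62, Mxd4 stayed above DMSO at 0.39 but missed the threshold (limma adjusted p = 0.299). Mnt fell by 0.42 ± 0.1 (limma adjusted p = 0.00424), and Max (-0.17 ± 0.08), Mxd1 (0.23 ± 0.16), Mxd3 (0.1 ± 0.11) and Mycn (0.13 ± 0.09) did not pass the test. The dimmer Mxd1 probe was at 0.03 ± 0.23 (limma adjusted p = 0.927). The brightest one passed in the authors' value table (0.78, limma adjusted p = 0.0231) and with Cy3 alone (0.79, limma adjusted p = 0.0197), and Max under median centring (-0.48, limma adjusted p = 0.0093). Max also passed without the unstimulated Th2 array with 500 nM (-0.24, limma adjusted p = 0.0453), Mxd1 without the unstimulated Th1 array (0.45, limma adjusted p = 0.00993) and Mxd3 without the reactivated Th2 array (0.24, limma adjusted p = 0.0447).

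The slides bear on these values, since the Th1 JQ1 arrays shared a slide with their DMSO arrays and the Th2 JQ1 arrays did not. In the Th1 pairs that shared a slide, 2 of 7 members changed, against 34.2% of genes. Myc was -0.48 ± 0.11 (limma adjusted p = 0.0117) and Mxd4 1.25 ± 0.19 (limma adjusted p = 0.0025), and Mnt was -0.24 ± 0.11 (limma adjusted p = 0.147). All flavopiridol arrays lay on another slide than their DMSO arrays, so slide and that drug cannot be told apart in those pairs.

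At 50 nM JQ1 0 of 7 members changed by limma with Benjamini-Hochberg adjustment, against 0.333% of genes, and at an unadjusted p below 0.05 it was 1 member and 1703 of 12911 genes. That member was Myc, at -0.38 ± 0.11 (adjusted p = 0.17). Between 500 nM and 50 nM 3 of 7 differed, against 31.3% of genes. Mxd4 was higher by 0.6 ± 0.2 (limma adjusted p = 0.0455) and by 0.49 ± 0.12 in its second probe (limma adjusted p = 0.0157). Mnt was lower by 0.34 (-0.34 ± 0.1, limma adjusted p = 0.0216), and Mxd1 was higher by 0.55 ± 0.16 in its brightest probe (limma adjusted p = 0.0274) and 0.19 ± 0.23 in the other. None of the 3 passed when the reactivated Th2 array with 500 nM or either Th2 array with 50 nM was left out, and over all left-out arrays the call was lost for Mnt in 4 of 12, Mxd1 in 6 and Mxd4 in 9. Myc missed the threshold (-0.24 ± 0.11, limma adjusted p = 0.119) but passed without the unstimulated Th1 array with 500 nM (-0.33, limma adjusted p = 0.0443). Under the spike-in shift, which moved the median of all genes from -0.06 to -0.62, Mxd1 turned to -0.01 and Mxd4 went to 0.04. Myc passed there at -0.8 (limma adjusted p = 0.0474), and under median centring at -0.51 (limma adjusted p = 0.0156).

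Both drugs were compared directly at their higher doses, in a fit of 20 arrays in which the DMSO arrays enter the cell context terms and the estimate of the spread. All 7 members tested were called lower with 10 µM flavopiridol than with 500 nM JQ1, against 56.8% of the 13115 genes (22.9% higher and 33.9% lower). For 1 of them, Mycn, no size is given, since it was above background on 0 of 4 flavopiridol and 2 of 4 JQ1 arrays, and its call was lost under median centring (limma adjusted p = 0.0563) and the spike-in shift (limma adjusted p = 0.0879). The arrays of both drugs lay on different slides in every cell type, so slide and drug cannot be told apart here either. Mxd3 differed most, by -2.44 ± 0.36 or 5.42-fold (limma adjusted p = 3.65e-05), followed by Myc at -2.11 ± 0.63 (limma adjusted p = 0.0105). Mxd4 differed by -1.7 ± 0.3 (limma adjusted p = 0.000177) in its brightest probe and by -0.73 ± 0.45 in the other, which did not pass (limma adjusted p = 0.195). Max was lower by 1.29 (-1.29 ± 0.13), Mnt was at -1.41 ± 0.29 and Mxd1 at -1.45 ± 0.47 in its brightest probe. The dimmer Mxd1 probe was at -2.02 ± 0.57 and also passed the test (limma adjusted p = 0.00774). The call of the brightest Mxd1 probe was lost without either Th1 array with 10 µM flavopiridol (-1.27 and -1.08) or the reactivated Th1 array with 500 nM JQ1 (-1.19), with Cy3 alone (-0.96, limma adjusted p = 0.0788) and in the authors' value table (-1.08, limma adjusted p = 0.0558).

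Reactivation was also compared within each drug. Under flavopiridol, of 6 members tested over 4 pairs, 0 changed by limma with Benjamini-Hochberg adjustment, against 0.128% of the 10920 genes. At an unadjusted p below 0.05 it was 3 of the 6, and 2499 of the 10920 genes. Myc differed by 1.01 and 0.23 in Th1 cells with 1 µM and 10 µM and by 0.77 and 0.16 in Th2 cells, a mean of 0.54 ± 0.15 (limma adjusted p = 0.135), which passed under the spike-in shift at 0.59 (limma adjusted p = 0.011), where 505 in place of 14 genes were called. All 4 differences were above 0 and below every difference without flavopiridol. Under 500 nM JQ1 4 of 7 members changed, against 46.1% of the 12133 genes (18.4% higher and 27.7% lower). Myc rose by 2.99 ± 0.31 (pairs 2.21, 2.78 and 3.99, limma adjusted p = 0.000878), Mxd3 fell by 1.86 ± 0.19 and Mxd4 fell by 0.63 ± 0.11 (pairs -0.58, -0.7 and -0.62, limma adjusted p = 0.00501). Under the spike-in shift Mxd4 was -1.06 and missed the threshold (limma adjusted p = 0.247). The second Mxd4 probe fell by 1.73 ± 0.16 (pairs -1.42, -1.6 and -2.16, limma adjusted p = 0.000864). Mxd1 was at -0.09 ± 0.13 in its brightest probe, which did not pass (limma adjusted p = 0.633), and fell by 1.23 ± 0.14 in the dimmer one (limma adjusted p = 0.00162). Max fell by 0.43 ± 0.11 (limma adjusted p = 0.0228), a call that was lost when any 1 of the 6 arrays was left out, at limma adjusted p between 0.0573 and 0.13.

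**Figure D3:**
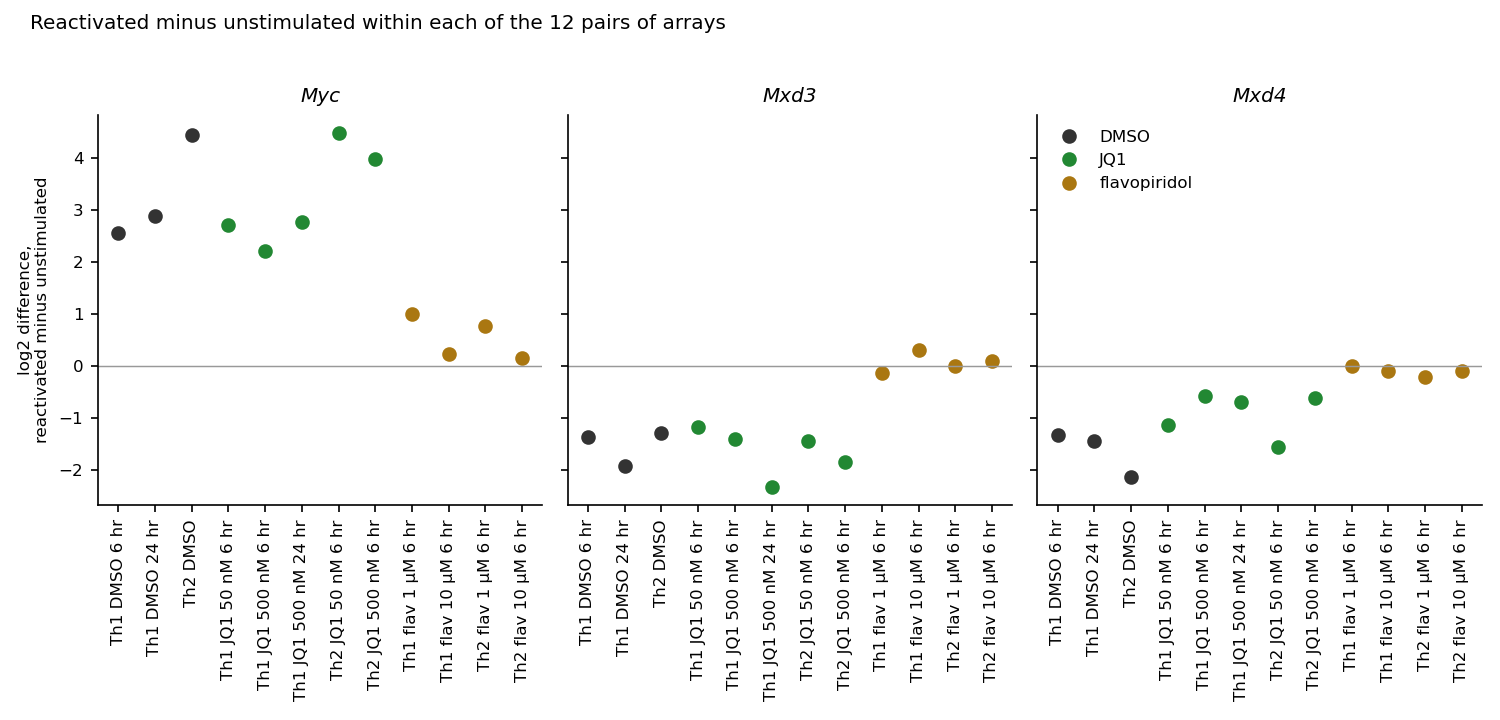
Log2 difference between reactivated and unstimulated cells (y axis) for Myc, Mxd3 and Mxd4 (brightest probe) in each of the 12 pairs of arrays (x axis, 1 point per pair; black for DMSO, green for JQ1, brown for flavopiridol). Myc differences are 0.16 to 1.01 with flavopiridol and at least 2.21 in the 8 other pairs, and Mxd4 differences of this probe with 500 nM JQ1 are -0.7 to -0.58 where DMSO pairs have -2.13 to -1.33 (second probe, not plotted, -2.16 to -1.42 and -2.92 to -1.35).

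Whether a drug acted differently in the states was tested as the effect in reactivated minus the effect in unstimulated cells, with 6 hr Th1 and Th2 cells in 1 fit. For 10 µM flavopiridol 2 of 7 members differed, against 15.9% of genes (8.96% higher and 6.92% lower). The term was -3.32 ± 0.51 for Myc (limma adjusted p = 0.00834) and 1.63 ± 0.29 for Mxd4 (limma adjusted p = 0.0129), with 2.44 ± 0.31 in the second Mxd4 probe. Mxd4 with 10 µM flavopiridol differed from DMSO by -1.59 in unstimulated cells of both types, and by -0.35 in reactivated Th1 and 0.44 in reactivated Th2 cells. The second probe gave -1.02 and -1.3 in unstimulated and 0.83 and 1.72 in reactivated Th1 and Th2 cells, so its sign differed between the states. Mxd3 had 1.54 ± 0.44 (limma adjusted p = 0.0552), and passed at 1.97 without the unstimulated Th1 DMSO array and at 2.02 without the reactivated Th2 DMSO array. It also passed at 1.54 with slide as a random block (limma adjusted p = 0.00311) and at 1.68 under median centring (limma adjusted p = 0.0461). Leaving out the unstimulated or the reactivated Th2 array with 10 µM flavopiridol gave Myc -2.97 (limma adjusted p = 0.0611) and -3.22 (limma adjusted p = 0.0576), and Mxd4 1.63 (limma adjusted p = 0.082) and 1.4 (limma adjusted p = 0.0789). The unstimulated Th1 array with that dose also decided the call of Mxd4, which was 1.64 (limma adjusted p = 0.0656) without it. This fit recovered 7% of simulated 2-fold and 78% of simulated 4-fold differences.

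For 500 nM JQ1 1 of 7 members differed between states, against 10.1% of genes (4.52% higher and 5.61% lower). Mxd4 had 1.13 ± 0.21 (limma adjusted p = 0.0115), or 0.63 ± 0.15 in its second probe (limma adjusted p = 0.0365), but -0.08 under the spike-in shift, which moved the median of all genes from -0.01 to -1.22. It was 0.97 without the reactivated Th2 DMSO array (limma adjusted p = 0.0595), 1.02 without the unstimulated one (limma adjusted p = 0.064) and 0.85 without both (limma adjusted p = 0.184). Myc had -0.41 ± 0.14 (limma adjusted p = 0.101). Between cell types 0 of 7 members differed in the effect of either drug by limma with Benjamini-Hochberg adjustment, against 0.0161% of genes for flavopiridol and 0% for JQ1. At an unadjusted p below 0.05 it was 2 members and 1610 of 12432 genes for flavopiridol, and 0 members and 905 of 12911 genes for JQ1. The flavopiridol fit by cell type recovered 0% of simulated 4-fold differences so its count of 0 does not show that the cell types respond alike. For Myc the difference between Th1 and Th2 cells was -0.43 ± 1.5 with flavopiridol and 0.18 ± 0.24 with JQ1.

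The drug effects on the listed Myc-induced genes also differed between states. On reactivation under 500 nM JQ1 23 of 35 changed (65.7%, against 46.1% of all genes), 21 higher, with a median of 0.76 against -0.06, and under flavopiridol 0 of 34 changed, where 0.128% of all genes did, with a median of -0.13 against -0.04 for all genes. The effect of 10 µM flavopiridol was lower in reactivated than in unstimulated cells for 19 of 35 and higher for 1 (57.1% called, against 15.9% of all genes), with a median term of -1.41 against 0.06. The effect of 500 nM JQ1 was lower in reactivated cells for 16 of 35 and higher for 0 (45.7% called, against 10.1% of all genes), with a median term of -0.54 against -0.01. Srm had -4.31 with flavopiridol (limma adjusted p = 0.00811) and -1.2 with JQ1 (limma adjusted p = 0.00182). The list's median lay below that of all genes by 1.37 to 1.56 with flavopiridol and by 0.46 to 0.53 with JQ1, over the reported scaling, median centring, the software's log ratio, the spike-in shift and Cy3 alone. Without the Th2 DMSO arrays the count with JQ1 went from 16 to 1, where that of all genes went from 1308 of 12911 to 76 of 12709, and the count with flavopiridol was again 20, where that of all genes went from 1974 of 12432 to 2758 of 11568. With flavopiridol the list's count went to 5 under median centring, 9 with the software's log ratio and 1 under the spike-in shift, and that of all genes to 957, 661 and 136. The comparisons share their DMSO arrays, so these counts are not independent of each other.

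**Figure D4:**
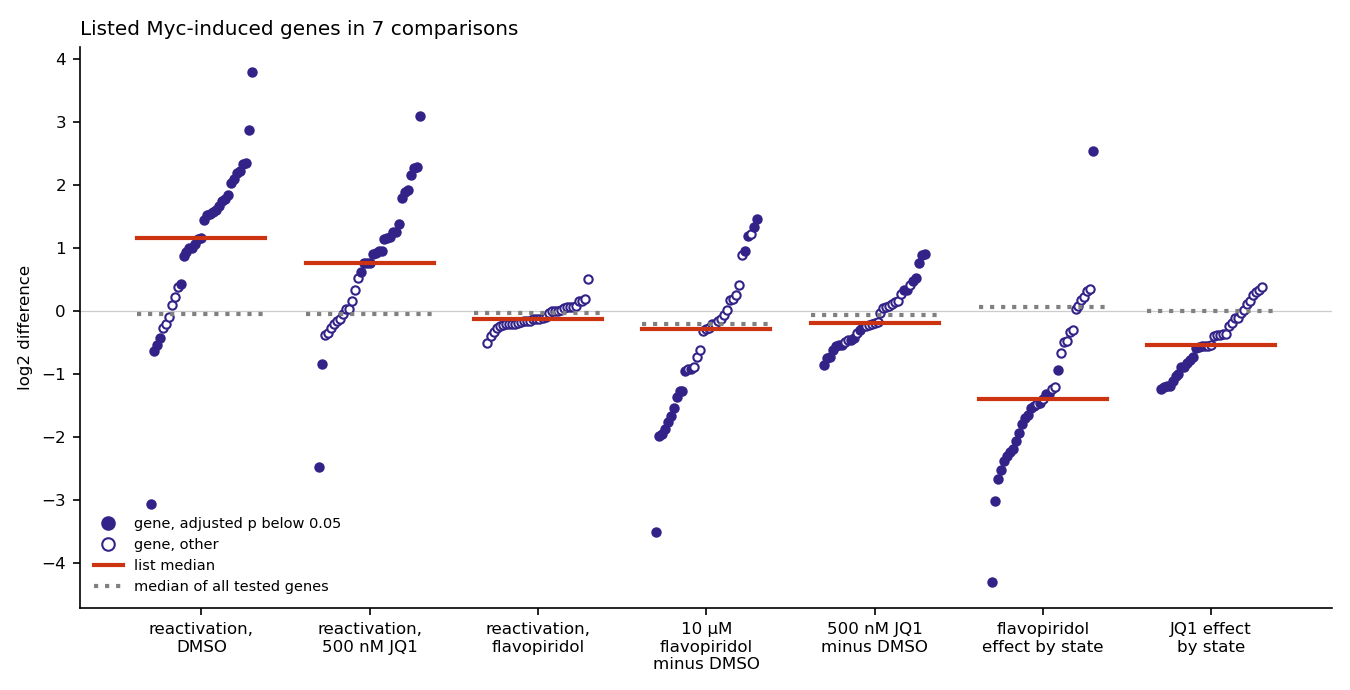
Log2 difference (y axis) of each listed Myc-induced gene in 7 comparisons (x axis), sorted by value within a comparison. Filled points passed the limma test at an adjusted p below 0.05, red lines are list medians and dotted grey lines medians of all genes tested. The list median is 1.15 on reactivation with DMSO, 0.76 with 500 nM JQ1 and -0.13 with flavopiridol.

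As a mean over both states, the share of Myc-induced genes that changed with either drug was near that of all genes. With 10 µM flavopiridol 12 of 35 fell and 4 rose (45.7%, against 48.8% of all genes), with a median of -0.29 against -0.22 for all genes. The glucose transporter Slc2a1 fell by 3.52 ± 0.24 and the cap-binding factor Eif4e by 1.99 ± 0.34, whereas Nme1, a nucleoside diphosphate kinase, rose by 1.45 ± 0.3 and the cell cycle factor E2f1 by 1.33 ± 0.17. The rises depend on the scaling, since 0 of the list rose under the spike-in shift, where 263 of all 12432 genes did. With 500 nM JQ1 11 fell and 7 rose (51.4%, against 47.5% of all genes), with Dkc1, the pseudouridine synthase dyskerin, at -0.86, the serine hydroxymethyltransferase Shmt2 at -0.75, the polyamine enzyme Odc1 at 0.9 and the glutamine transporter Slc1a5 at 0.89. Here too 0 rose under the spike-in shift, and 16 fell, where 88 of all 12911 genes rose and 4455 fell. Eif4e and Nme1 are 2 of the 7 listed genes, of 26 with a window, whose promoter holds the E-box, and so are shown. Each holds 2, of which the following is shown, and the other lies 228 bases before the start for Eif4e and 18 bases before another start for Nme1. The Eif4e site shown is 64 bases before the start, at chr3:138527192-138527221 on the plus strand, and that of Nme1 29 bases before, at chr11:93968037-93968066 on the minus strand.
Eif4e: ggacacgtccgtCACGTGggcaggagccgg
Nme1: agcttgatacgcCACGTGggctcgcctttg

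Of the 10 Myc-repressed genes 7 rose and 0 fell with 500 nM JQ1 (70%, against 47.5% of all genes, 17.7% higher and 29.8% lower), with a median of 0.57 against -0.07 for all genes. The stress gene Gadd45a rose by 1.52 ± 0.14 and the cell cycle inhibitor Cdkn1c (p57) by 1.25 ± 0.09. The count of rises was 3 without the Th2 DMSO arrays, 3 under median centring and 1 under the spike-in shift, and that of all genes went from 2285 of 12911 to 1589 of 12709, and to 738 and 88 of 12911. With 10 µM flavopiridol 5 changed (50%, near the 48.8% of all genes), with a median of -1.1 against -0.22. Here 4 fell, among them Gadd45b by 2.84 ± 0.54 and the growth and stress gene Ndrg1 by 2.25 ± 0.38, and 1, the growth arrest gene Gas1, rose by 1.17 ± 0.14. Gas1 was no longer counted among rises under the spike-in shift or median centring, where 8 fell and 0 rose. Of all 12432 genes, 7846 fell and 263 rose under the spike-in shift, and 8283 fell and 286 rose under median centring. Gadd45b is the 1 listed gene of 8 with a window whose promoter holds the E-box, 185 bases before the start at chr10:80929894-80929923 on the plus strand.
Gadd45b: agccctgaccccCACGTGgggccgccggag

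Of 22 tested cofactor and turnover genes 10 fell and 0 rose with 10 µM flavopiridol, with a median of -0.55 against -0.22 for all genes, and the share called, 45.5%, was near the 48.8% of all genes. Aurka, a mitotic kinase known to stabilise Mycn protein, fell by 3.03 and Pim1, a kinase that works with Myc, by 2.17. With 500 nM JQ1 7 fell and 7 rose (63.6% called, against 47.5% of all genes), with a median of 0.04 against -0.07. Bin1 fell by 1.37, the acetyltransferase Kat2a by 1 and Ruvbl1 by 1, whereas Trrap, the scaffold of Myc's acetyltransferase complexes, rose by 1.14 and Pim1 by 0.64. In the wider network Mlxipl rose by 1.68 ± 0.09 with 500 nM JQ1 (limma adjusted p = 1.27e-06) and by 0.62 ± 0.09 with 50 nM (limma adjusted p = 0.0237). With 10 µM flavopiridol Mga, which encodes a Max partner, fell by 0.53 ± 0.15 (limma adjusted p = 0.0158) and Mlxip by 0.61 ± 0.15 (limma adjusted p = 0.00889). The JQ1 effect on both was lower in reactivated than in unstimulated cells, by -0.87 for Mga and -0.84 for Mlxip.

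Some genes had nearly the pattern of a member over the 24 arrays, among 11814 genes above background on at least 12 arrays. These correlations are descriptions, since the arrays share their reference RNA and fall into separate groups by state and drug. Myc was most like Ccdc86 (r = 0.982), the inhibitory receptor gene Pdcd1 (0.978) and the initiation factor gene Eif1a (0.974). Mxd3 was most like Sgpp1 (0.984), the checkpoint gene Clspn (0.978) and Fam111a (0.973), the last 2 known for roles in DNA replication. Max was most like Nsmce4a (0.986), Uba2 (0.979) and Rnf114 (0.973), Mnt like Phf23 (0.975), Setd5 (0.969) and Pramel12 (0.967), Mxd4 like Rps6ka5 (0.96), Atp13a2 (0.958) and Cnnm2 (0.957), and Mxd1 like Icam1 (0.903), Rasgef1a (0.903) and Dennd4a (0.882). Those of Mxd1 rest on its brightest probe alone, whose signal for the naive RNA had an SD of 0.46. Beside Myc, the partners differed in shape. Mxd3 and Mxd4 were high where Myc was low in cells without flavopiridol, and Mxd3 was low together with Myc in cells with it. Mxd4 ran from -2.13 to -1.13 with flavopiridol, against -2.5 to -1.67 in reactivated DMSO cells. Its second probe ran from -1.74 to -0.52, against -2.49 to -2.25. Max lay between -1.25 and -0.43 on all arrays without flavopiridol.

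**Figure D5:**
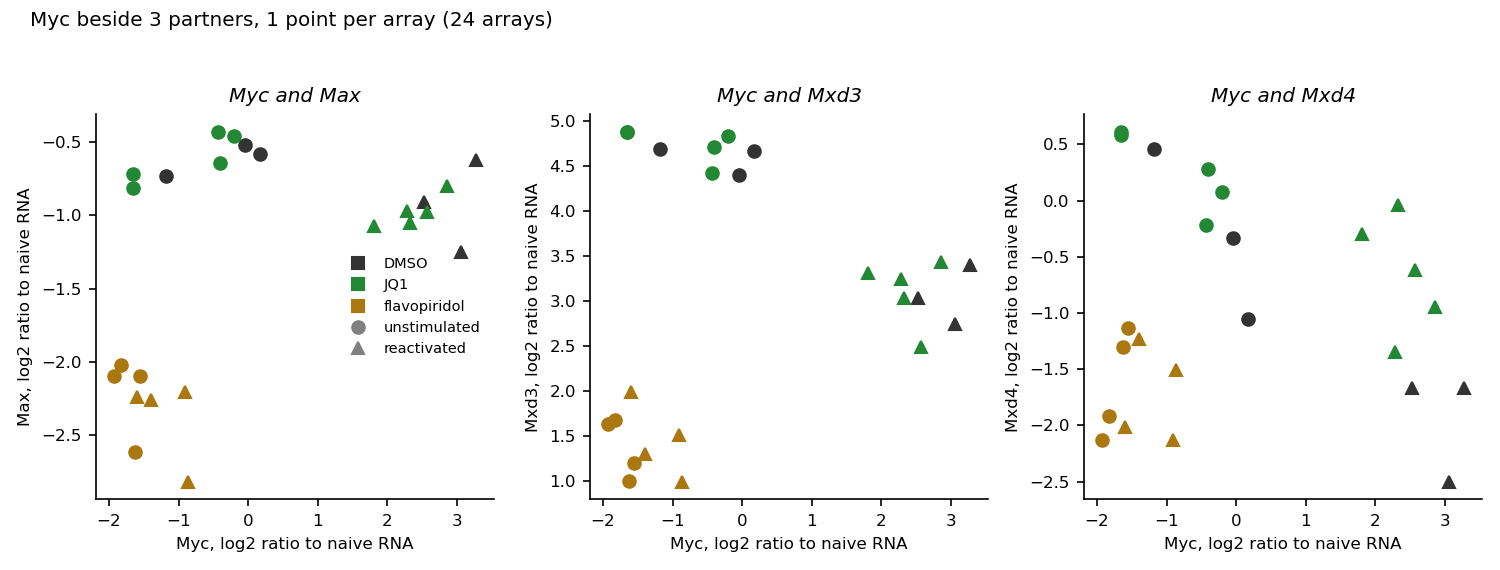
Log2 ratio to naive RNA of Max, Mxd3 and Mxd4 (y axes) against that of Myc (x axis), 1 point per array (black for DMSO, green for JQ1, brown for flavopiridol; circles unstimulated, triangles reactivated). The arrays form separate groups, and with flavopiridol Max lies at -2.82 to -2.02 and Mxd3 at 0.99 to 1.99. Mxd4 lies at -2.13 to -1.13 with flavopiridol, where reactivated DMSO cells have -2.5 to -1.67.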

How the data were processed

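The members, lists and tests were chosen with earlier results of these data known. The authors labelled sample RNA with Cy3 and naive RNA with Cy5, hybridised both to 2-colour Agilent arrays (24 arrays, 8 per slide) and read them with Agilent Feature Extraction 10.7.1.1. The deposited scanner files hold linear intensity values per spot and, per the file headers, a log10 ratio, and the deposited value table holds log2 ratios, which correlated with those used here at r = 0.981 to 0.996 over 34710 probes. The direction, Cy3 over Cy5, comes from the labelled dyes.

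Median spot signals were background corrected by normexp (offset 50) and normalised by loess within arrays in limma 3.58.1 (R 4.3.3, data.table version 1.17.8), with control spots at weight 0 and outlier spots (234 to 331 per array) left out. Repeated spots were averaged (SD 0.091 to 0.11), and a gene was its brightest probe. Loess sets the bulk of genes on an array to 0, so a change shared by most genes is not seen. Genes above background in Cy3 on at least 3 arrays of a fit were tested by lmFit and eBayes on log2 ratios, and called at a Benjamini-Hochberg adjusted p below 0.05. Pair or cell context was a block, except in the comparisons with naive RNA, which used the mean of each state without a block. For drug effects both doses and DMSO shared a fit of 12 arrays. No condition was replicated, and the number of arrays limits the precision. Fits were tested on simulated data.

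Named genes were the members with every probe, the wider network, the 2 largest rises and falls per list and main comparison, and the 3 genes most correlated with each member. Alternatives were another background correction, normalisation or scaling, Cy3 alone, the deposited table, no filter, the mean of probes, other blocks, the lower dose and each array left out. Columns of the authors' own comparisons were not used. Promoter sequences are from RefSeq (GRCm38.p6). A marker gene is not reported here and was left out of the marker sums.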

Additional observations from a re-analysis of the deposited data

Results flagged for a closer look

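The effect of a drug differed between reactivated and unstimulated cells in 3 results, by the interaction term in limma. For 10 µM flavopiridol the term was -3.32 for Myc and 1.63 for Mxd4, the latter missing the threshold at 1.41 under the spike-in shift (limma adjusted p = 0.209). For 500 nM JQ1 the term was 1.13 for Mxd4, but -0.08 under the spike-in shift.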

How the results depend on the processing

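Of 2047 values of 97 member results under alternatives, 1912 kept their direction and side of the threshold, 84 were weaker, 49 stronger and 2 reversed. The reversed values were those under the spike-in shift, of Mxd1 between JQ1 doses (-0.01) and of Mxd4 for the JQ1 effect by state (-0.08). In the cases below the cause was not tested, except that fewer arrays entered a fit.

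Members that changed on reactivation numbered 5 in place of 3 without both Th2 DMSO arrays, a choice made after the data were seen, and 3 to 5 with 1 array left out (5 without either of these). Of all genes, 5602 of 12276 were called without the unstimulated one and 5569 of 12298 without the reactivated one, against 6388 of 12530 otherwise. With 500 nM JQ1 the count of 3 members went to 0 without the block, where 901 of 12911 genes were called in place of 6137. It was also 0 at the lower dose, where 43 genes were called. Between JQ1 doses the count of members went from 3 to 1 with the authors' values (3849 of 12533 genes called, in place of 4036 of 12911). It was 1 with the software's log ratio (3996 of 12911), 0 without the block (168 of 12911) and 0 to 3 with 1 array left out. For the JQ1 effect by state it went from 1 to 0 without the block, where 4 of 12911 genes were called in place of 1308, to 5 under the spike-in shift, where 11038 were, to 0 without the Th2 DMSO arrays and 0 to 1 with 1 array left out. For the flavopiridol effect by state the count of 2 members went to 1 without the block (719 of 12432 genes called, in place of 1974). It was also 1 with the software's log ratio (661 genes) and under the spike-in shift (136). Slide as a random block and median centring added Mxd3, with 3920 and 957 genes called. The count was 4 without the Th2 DMSO arrays and 0 to 3 with 1 array left out. Under the spike-in shift reactivation under JQ1 gave 2 in place of 4, with Max and Mxd4 lost, and under flavopiridol 1 (Myc) in place of 0, and median centring gave 6 in place of 3 for unstimulated against naive cells, Myc among them.

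Over all genes the spike-in shift gave 4091 higher and 2098 lower calls on reactivation (2746 and 3642 otherwise), 263 and 7846 with 10 µM flavopiridol (1915 and 4157) and 88 and 4455 with 500 nM JQ1 (2285 and 3852), so directions hold relative to the bulk of genes. Slide as a random block could not be run for pair-blocked fits or by cell type, since the design already holds the slide. Mycn and Mxi1 lie near background, which limits what their probes can show.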
